A study of Mus musculus with 4 samples.

Results

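miR-135a and miR-135b are the mature miRNAs measured here, taken as every spot whose name in the scanner files is mmu-miR-135a or mmu-miR-135b. They are 2 of the 611 mouse miRNAs on the array and 2 of the 153 that were well above background on all 4 arrays. They were chosen by their measured intensities, both being lower on each of the 2 arrays titled NFIA OE than on the control-titled array of the same passage, so the difference by title is given as a description, with no test. The difference by passage was not used to pick them and was tested.

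miRNAs are short RNAs cut from a hairpin precursor. They pair with messenger RNAs mainly through the seed, bases 2 to 8 from the 5′ end, and lower the output of those messages. The miR-135 family is expressed in brain. In mouse, miR-135a has been reported to target Lmx1b, a transcription factor of midbrain dopaminergic progenitors, and to act on genes of serotonin signalling. In human colorectal cells the family has been reported to target APC, an inhibitor of Wnt signalling. No messenger RNA was measured, so no target can be followed in these samples.

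The samples were neural stem and progenitor cells (NSPCs) derived from mouse embryonic stem cells and kept as neurospheres, which are free-floating balls of proliferating neural cells. The 4 groups, with 1 array each, were secondary neurospheres titled NFIA OE, secondary neurospheres titled control (both passage 1, day 12 after the embryoid body stage), primary neurospheres titled NFIA OE and primary neurospheres titled control (both passage 0, day 6). NFIA is a transcription factor that promotes astrocyte formation, and OE stands for its overexpression. The overexpressing and control cells of a passage were grown in the same mixed spheres and separated by fluorescence-activated sorting, so the control cells shared their culture with overexpressing cells. The vector and promoter that drive NFIA, and the number of lines or clones, are not given in the sources used here. The source names contradict the titles at both passages, calling the cells of the arrays titled control the NFIA OE line and those of the arrays titled NFIA OE WT. Groups follow the titles, and by the source names every title difference would turn its sign. NFIA is no miRNA, so the arrays cannot settle which label is right.

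Values are scaled intensities. A probe's mean spot intensity was divided by the array's 75th percentile over the probes well above background on all 4 arrays, and put on the log2 scale, so that 0 is that percentile. The percentile was 369, 443, 261 and 167 intensity units on the secondary NFIA OE-titled, secondary control-titled, primary NFIA OE-titled and primary control-titled arrays, which makes the primary control-titled array the dimmest. The arrays detected 186 to 220 mouse miRNAs. All 4 lay on 1 slide, where the row goes with passage and the column with title, so neither can be told apart from position. Of the neural list, 7 of the 12 miRNAs on the array were measured on all 4, miR-9, miR-9* and miR-124 among them. The blood markers miR-223, miR-142-3p and miR-451 were above background on none (0 of 3). In such bulk samples, fewer cells of a type and less RNA per cell cannot be told apart.

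By the RefSeq sequences (build GRCm38.p6), 3 genes give almost the same 5′ arm, which is why both miRNAs are described side by side. miR-135a-5p comes from 2 of them, Mir135a-1 (chr9:106154124-106154213, plus strand) and Mir135a-2 (chr10:92072086-92072185, minus strand), and an array cannot assign it to either. The third gene is Mir135b (chr1:132198088-132198184, plus strand). The mature sequence is shown first with its seed in capitals, and then the 3 hairpins with the stretch that lines up with miR-135a-5p in capitals.
mmu-miR-135a-5p: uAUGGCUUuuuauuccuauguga
Mir135a-1 hairpin: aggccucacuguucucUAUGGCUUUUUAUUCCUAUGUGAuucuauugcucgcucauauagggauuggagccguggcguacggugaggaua
Mir135a-2 hairpin: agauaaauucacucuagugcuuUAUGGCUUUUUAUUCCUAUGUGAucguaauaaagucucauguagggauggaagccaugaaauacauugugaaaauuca
Mir135b hairpin: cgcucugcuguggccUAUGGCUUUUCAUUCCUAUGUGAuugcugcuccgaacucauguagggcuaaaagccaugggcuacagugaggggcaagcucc

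In the Mir135b hairpin 22 of those 23 bases equal miR-135a-5p, and the exception is U11C, counted from 1 at the 5′ end of miR-135a-5p. It lies outside the seed, so the seed AUGGCUU is the same in all 3 hairpins. Of the 1679 named mouse mature miRNAs in the table, which is not complete, miR-135a-5p alone is listed with that seed. Mature miR-135b-5p has no entry there, so its seed is read from the hairpin only, and this search could not find it. The scanner files give probe names and no probe sequences, so how far a miR-135a probe also binds miR-135b, or the reverse, was not tested. The 3′ arms differ more, and their seeds, again in capitals, are different in each of the 3 genes.
mmu-miR-135a-1-3p: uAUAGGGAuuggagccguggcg
mmu-miR-135a-2-3p: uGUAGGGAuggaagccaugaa
mmu-miR-135b-3p: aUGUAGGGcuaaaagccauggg

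In the gene table Mir135a-1 lies within the span of Glyctk, which encodes glycerate kinase, and a long non-coding RNA gene, D030055H07Rik. Mir135a-2 has Rmst, a long non-coding RNA gene known from neural progenitors, as a direct neighbour. Mir135b lies within the spans of Lemd1 and the long non-coding RNA gene Gm29695. These genes were not measured.

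Each member was read by 2 probes of 10 spots, 40 spots on an array in all. Of the 160 spots over 4 arrays, 4 carried an outlier flag and were left out, and the other 156 were well above background. Probe means ran from 143 to 869 intensity units, against median negative-control signals of 2.92 to 3.72 units, and the spots of a probe on an array had coefficients of variation of 4.44% to 12.7%. Both members were therefore far above background on all 4 arrays, and neither was saturated.

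miR-135a probe A_54_P1066 read 475 and 869 intensity units on the secondary arrays titled NFIA OE and control, and 310 and 389 units on the primary arrays titled NFIA OE and control. Probe A_54_P4370 read 204 and 366 units on the secondary arrays and 143 and 167 units on the primary arrays in that order. On both probes the array titled NFIA OE was dimmer than its partner before any scaling.

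miR-135b probe A_54_P2589 read 147 and 304 units on the secondary arrays titled NFIA OE and control, and 167 and 266 units on the primary arrays titled NFIA OE and control. Probe A_54_P2590 read 183 and 387 units on the secondary arrays and 212 and 333 units on the primary arrays in that order. The order by title was that of miR-135a. The secondary array was dimmer than the primary one in the pair titled NFIA OE and brighter in the pair titled control, whereas for miR-135a it was brighter in both.

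As scaled log2 values, miR-135a stood at -0.24 and 0.35 on the secondary arrays titled NFIA OE and control, and at -0.31 and 0.61 on the primary arrays titled NFIA OE and control. Standard errors (SE) over spots, which are technical, were 0.029, 0.028, 0.037 and 0.025. On this scale the highest array was thus the primary control-titled one and the lowest the primary NFIA OE-titled one. Neighbours in that order lay 0.26, 0.59 and 0.07 apart. Only the gap of 0.59, between the secondary arrays titled control and NFIA OE, exceeded the residual SD of 0.29 log2 from the fit over 153 miRNAs. That SD is for a single array, so a gap between arrays has a larger spread. The place of the highest array depends on the scaling. Both miR-135a probes were brightest on the secondary control-titled array before scaling. In the authors' processed values that array was also the highest, at 24.0 against 18.4 on the primary control-titled one.

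miR-135b stood at -1.17 and -0.37 on the secondary arrays titled NFIA OE and control, and at -0.48 and 0.83 on the primary arrays titled NFIA OE and control (SE over spots 0.021, 0.015, 0.035 and 0.022). On this scale the primary control-titled array was again the highest, here by 1.20, and the secondary NFIA OE-titled one was the lowest by 0.69. The secondary control-titled and primary NFIA OE-titled arrays between them lay 0.11 apart, less than the residual SD. Before scaling both miR-135b probes were brightest on the secondary control-titled array.

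**Figure D1:**
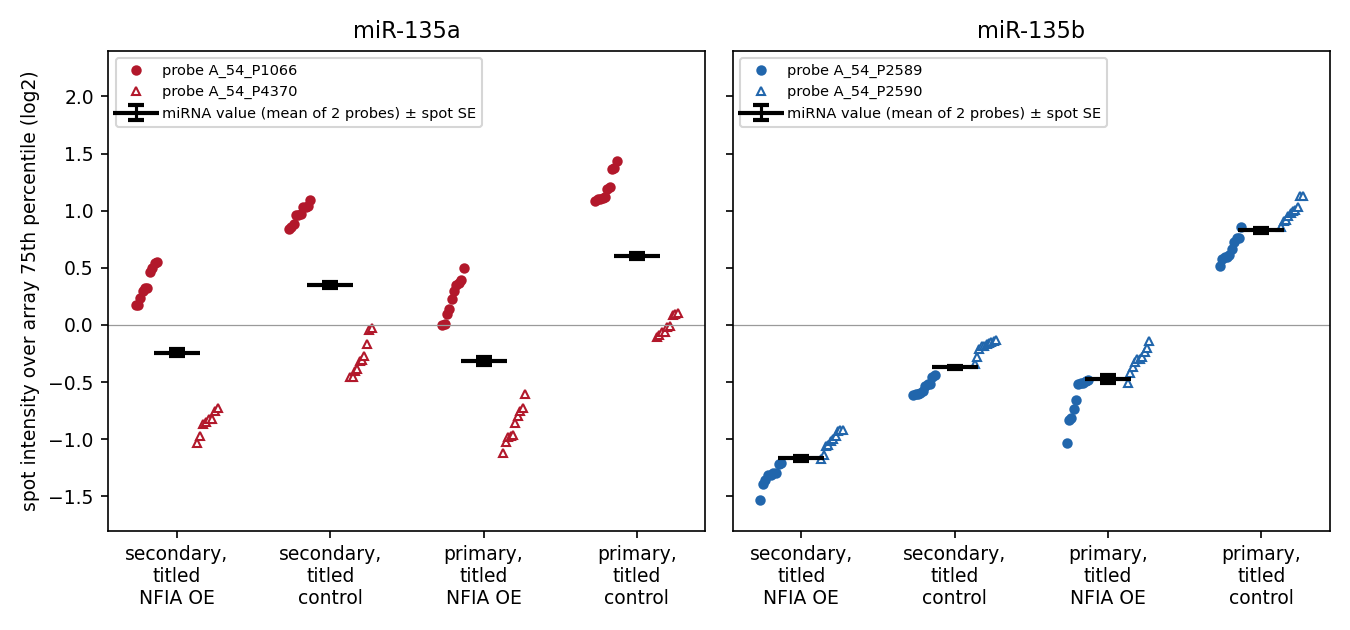
Scaled intensity (log2, 0 = the array's 75th percentile) of each kept spot of miR-135a (left) and miR-135b (right) on the 4 arrays, spots of a probe drawn from low to high, with the miRNA's value as a black bar ± its SE over spots. On each probe the spots titled NFIA OE lie below those titled control at the same passage, and the spots of miR-135b on the secondary array lie below those on the primary array of the same title, while those of miR-135a overlap.

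By title, both members had lower values in the samples titled NFIA OE, which is how they were picked. miR-135b differed by -0.80 in the secondary pair and -1.31 in the primary pair, a mean of -1.05 ± 0.36 (SD over 2 pairs), or 2.07-fold lower. miR-135a differed by -0.59 and -0.92 in the same pairs, a mean of -0.76 ± 0.23 (SD over 2 pairs), or 1.69-fold lower. Of all measured miRNAs 33.3% (51 of 153) were lower in both pairs, with a median title difference near 0 (-0.0022). The choice has its bound at 0. miR-135a, the less low of the members, lay at -0.59 and -0.92, while its partner strand miR-135a*, which is no member, lay on both sides of the bound, at 0.32 in the secondary and -0.11 in the primary pair. Signs differed between both pairs for 43.1% of the 153 miRNAs.

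The 2 probes of a member gave like values. For miR-135b they were -0.78 and -0.82 in the secondary pair and -1.32 and -1.30 in the primary pair, for A_54_P2589 and A_54_P2590. For miR-135a they were -0.61 and -0.58 in the secondary pair and -0.97 and -0.87 in the primary pair, for A_54_P1066 and A_54_P4370. In both pairs the brightest kept spot titled NFIA OE was below the dimmest kept spot titled control for each of the 4 probes, once scaled. For A_54_P4370 in the secondary pair this rests on the outlier flag. A left-out spot titled NFIA OE was at -0.38, above the dimmest spot titled control at -0.46. Of 252 probes of the measured miRNAs, 25.8% were so separated in the secondary and 21.4% in the primary pair, so spot separation is common and shows technical precision only.

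At least 2-fold lower was miR-135b in the primary pair, where 3.27% of the 153 miRNAs were that low, and neither member (0 of 2) in the secondary pair, where 0.654% were. Ordered from the lowest title difference, miR-135b was the 3rd of 153 in the secondary and the 2nd in the primary pair, and miR-135a the 6th and 8th. Both members (1.31% of the 153) are the only measured miRNAs at least as low as miR-135a in both pairs, but miR-135a itself sets that bound. By the less low of its pairs, miR-135b was lowest, then miR-7a (-0.76), miR-153 (-0.70) and miR-551b (-0.60), before miR-135a (-0.59). These orders use the values by which the members were picked, so they are a description only. miR-7a, miR-153 and miR-551b were at or below -0.59 in the secondary pair and less low than miR-135a in the primary pair, at -0.76, -0.90 and -0.60.

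The title difference of both members was smaller in size in the secondary than in the primary pair, by 0.51 for miR-135b and 0.33 for miR-135a. Over all 153 miRNAs the median size of that change was 0.35, and with 1 array per group the change has no test. Its direction depends on the scaling. Without scaling miR-135b was at -1.06 in the secondary and -0.66 in the primary pair, and miR-135a at -0.86 and -0.28. With the 75th percentile over all probes miR-135a was at -0.88 and -0.85 in those pairs, while miR-135b kept the order, at -1.08 and -1.24. Under 12 other settings of scaling, background correction, filter and averaging, the title difference of each member was below 0 in both pairs each time. These settings reprocess the arrays by which the members were picked, so they show the dependence on processing only. The means ran from -1.18 to -0.82 for miR-135b and from -0.90 to -0.57 for miR-135a. In the authors' deposited processed values miR-135b was at 7.09 and 13.4 in the secondary samples titled NFIA OE and control, and at 7.30 and 19.9 in the primary ones. miR-135a was at 14.6 and 24.0 in the secondary and 8.72 and 18.4 in the primary samples in that order.

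Among markers of mesenchymal, muscle and endothelial cells, those of the miR-199 and miR-214 kind differed with title too. Of that list 4 of 10 were above background on each array titled NFIA OE (miR-199a-3p, miR-199a-5p, miR-199b* and miR-214) and 2 of 10 on each titled control. Their summed scaled intensity, in multiples of the array's 75th percentile, was 1.53 and 1.46 on the secondary and primary arrays titled NFIA OE, against 0.306 and 0.428 on those titled control. The other 6, miR-143, miR-145, miR-133a, miR-1, miR-206 and miR-126-3p, were not well above background on any array. Whether cells of these types were present, or had a part in the title differences, was not tested.

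**Figure D2:**
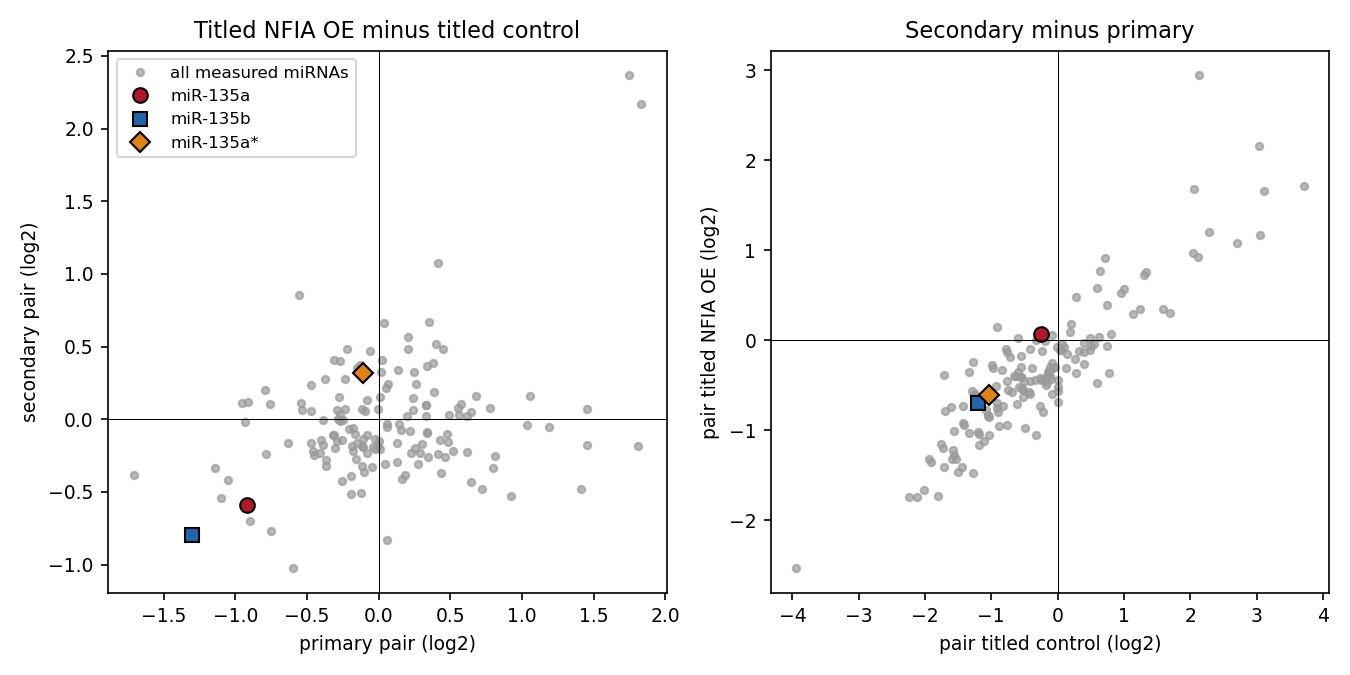
Log2 differences of the 153 measured miRNAs, with miR-135a, miR-135b and miR-135a* marked, titled NFIA OE minus titled control (left; primary pair on the horizontal axis, secondary pair on the vertical axis) and secondary minus primary (right; pair titled control on the horizontal axis, pair titled NFIA OE on the vertical axis). Both members lie at the lower left in the title panel, while in the passage panel miR-135b and miR-135a* lie low in both pairs and miR-135a lies near 0.

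By passage, miR-135b was called lower in secondary than in primary neurospheres, 1.93-fold (log2 difference -0.95, SE 0.29, 95% interval -1.53 to -0.36, n = 2 arrays per passage, limma adjusted p = 0.00552). miR-135a was not called (-0.09, SE 0.29, 95% interval -0.68 to 0.49, limma adjusted p = 0.809). That interval still holds a drop of 0.68, so a difference of that size cannot be set aside for miR-135a, and the intervals of the members overlap. The fit held title and passage as additive terms over the 4 arrays, adjusted by Benjamini-Hochberg over 153 miRNAs. It called 45.8% of them, with 32.7% lower and 13.1% higher in secondary neurospheres, so 1 member of 2 is near the background. The arrays of a passage come from 1 mixed culture, so the p-values carry no spread between cultures. The spread in the fit is how far passage differences varied with title, pooled over the 153 miRNAs. Passage also goes with days in culture.

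The call for miR-135b rests on the scaling between arrays. The median miRNA itself stood at -0.39, and relative to it miR-135b was at -0.56 (limma adjusted p = 0.146, not called, where 34.6% of the 153 were). Without scaling it was at 0.0045, and it was called in 5 of 13 other settings, with adjusted p from 0.0033 to 0.994. miR-135a was called in none (0 of 13 settings, adjusted p from 0.132 to 0.941), and its value ran from -0.09 to 0.86, so that its direction flips with the scaling.

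In the pair titled NFIA OE miR-135b was at -0.69 and miR-135a at 0.07, and in the pair titled control they were at -1.20 and -0.26. On this scale miR-135a thus had opposite signs in both pairs, as had 17.6% of the 153 miRNAs. At least 2-fold lower was thus miR-135b in the pair titled control, where 26.8% of the 153 were, and neither member (0 of 2) in the pair titled NFIA OE, where 16.3% were. Scaled spots on the secondary array lay below those on the primary array for both miR-135b probes in both pairs, and overlapped for both miR-135a probes in both pairs. Over the 252 probes 54.8% lay below in the pair titled NFIA OE and 48.8% in the pair titled control, so this separation is common too.

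What does not depend on any common factor of an array is the change of miR-135b against that of miR-135a. For secondary minus primary neurospheres it was -0.76 in the pair titled NFIA OE and -0.94 in the pair titled control, so that the ratio of miR-135b to miR-135a signal was 1.70-fold and 1.92-fold lower in the secondary array of the pair. Over the 4 possible pairs of a miR-135b and a miR-135a probe it ran from -0.83 to -0.70 and from -0.97 to -0.92 in those pairs. Under 11 other settings, quantile normalization and normexp included, it stayed between -0.83 and -0.58 and between -0.95 and -0.81. These are differences between single arrays with no test. The residual SD of 0.29 is for a single miRNA on a single array, while this quantity draws on both members and both arrays of a pair. Its spread was not estimated, and a ratio cannot say which of the members changed. By title the same quantity was smaller, -0.21 in the secondary and -0.39 in the primary pair.

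Pluripotency markers differed with passage. Of 12 miRNAs of the miR-290 and miR-302 clusters, 7 and 1 were above background on the secondary arrays titled NFIA OE and control, against 11 and 10 on the primary ones. Their summed scaled intensity was 0.460 and 0.217 on the secondary and 4.34 and 5.06 on the primary arrays in that order. miR-291b-3p was above background on none. The part of such cells in the passage difference of miR-135b was not tested.

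**Figure D3:**
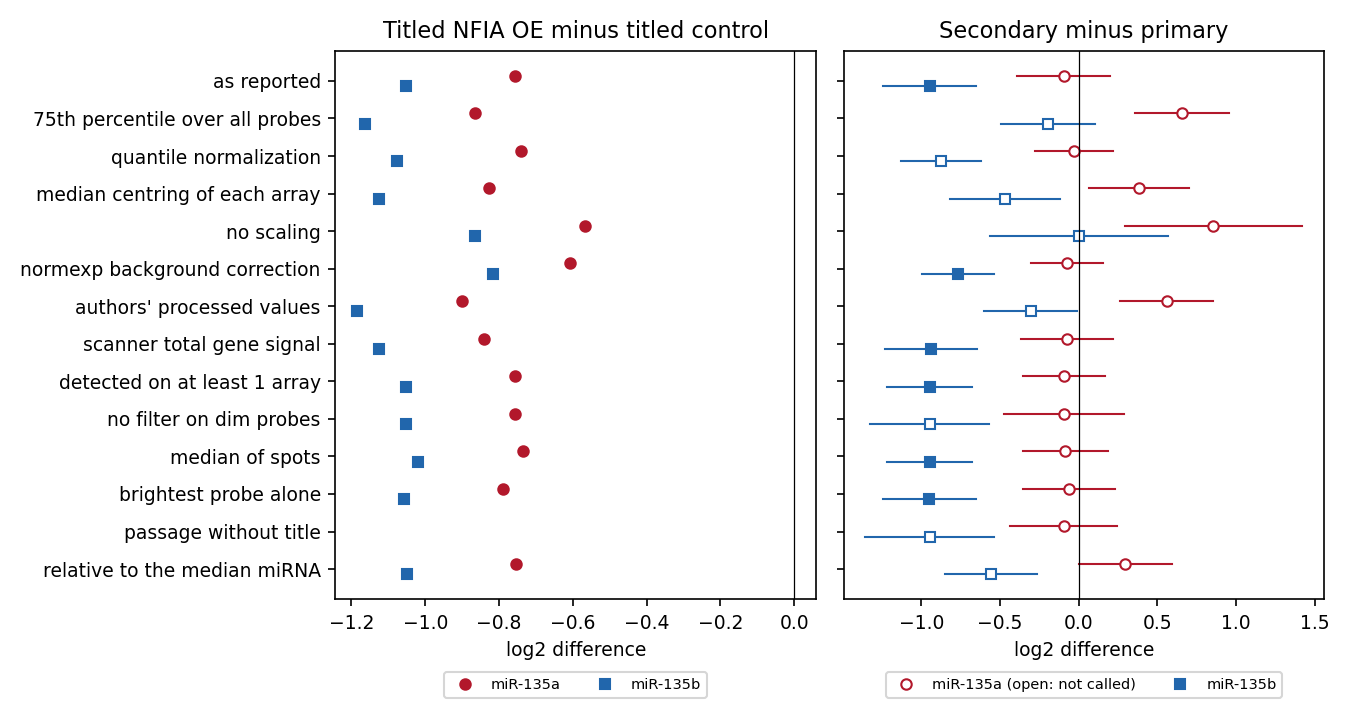
Log2 differences of miR-135a (circles) and miR-135b (squares) as reported and under each other setting, titled NFIA OE minus titled control as the mean over both passages (left, no test) and secondary minus primary (right, ± SE, filled where limma called it at an adjusted p under 0.05). Title differences, by which the members were picked, stay below 0 throughout. The passage differences shift together with the scaling and keep miR-135b below miR-135a.

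The partner strand miR-135a* is on the array with 4 probes of 5 spots, of which 2, A_54_P3299 and A_54_P3300, were well above background on all 4 arrays and 2 on none. The files do not say whether it is the 3′ arm of Mir135a-1 or of Mir135a-2, shown above. Its value was -3.20 and -3.52 on the secondary arrays titled NFIA OE and control, and -2.59 and -2.48 on the primary arrays titled NFIA OE and control. By title it differed by 0.32 in the secondary and -0.11 in the primary pair, with SEs over spots of 0.073 and 0.080. By passage it was called lower (-0.82, SE 0.29, limma adjusted p = 0.0163), but not relative to the median miRNA (-0.43, adjusted p = 0.275), and it was at 0.13 without scaling. Unscaled, those 2 probes read 25.2 to 48.5 units over the 4 arrays.

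Within 100 kb of Mir135a-1 lies Mirlet7g. let-7g, of a family whose mature forms accumulate as stem cells differentiate, was called higher in secondary neurospheres (1.52, SE 0.29, limma adjusted p = 6.77e-06), at 0.92 in the pair titled NFIA OE and 2.12 in the pair titled control. By title it differed by -0.48 in the secondary and 0.72 in the primary pair. Its title difference had the sign of miR-135a in the secondary pair and the opposite sign in the primary pair. Mir1251, within 100 kb of Mir135a-2, has no probe on the array.

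The patterns most like those of the members were taken by the Euclidean distance between 4 log2 values, each miRNA centred on its own mean, over 4 arrays. For miR-135a the nearest were miR-219 (distance 0.38), miR-362-5p (0.44), miR-362-3p (0.49), miR-128 (0.54) and miR-153 (0.56), where the median of the 152 others was 1.04. For miR-135b they were miR-124 (0.41), miR-153 (0.42), miR-92b (0.42), miR-7a (0.43) and miR-219 (0.60), where the median was 1.34. The distance between the members was 0.91, which put miR-135b at place 50 from miR-135a, and miR-135a at place 23 from miR-135b. A member with small differences is near to more miRNAs, and 4 arrays of 1 slide support no more than a description. The 4 values hold the title and passage differences, so a near miRNA is like its member in both by the choice itself.

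miR-219, enriched in oligodendrocytes, and miR-153, a neuronal miRNA reported to target Nfia, were on both lists. miR-219 differed by title by -0.42 in the secondary and -1.05 in the primary pair, and miR-153 by -0.70 and -0.90. The glial list as a whole did not share this. Of its 3 measured members, miR-23b was higher in both pairs (0.67 and 0.35), miR-23a had both signs (-0.09 and 0.34), and the list's median title difference was 0.13. By passage neither was called (miR-219 at -0.44, miR-153 at -0.65, limma adjusted p = 0.215 and 0.0612). On the list of miR-135b, miR-124, abundant in neurons, miR-7a, known from neurons and endocrine cells, and miR-92b, a relative of miR-92a, were called lower in secondary neurospheres (-1.28, -1.12 and -1.05, limma adjusted p = 0.000133, 0.000958 and 0.00189). On that of miR-135a, miR-362-5p, miR-362-3p and the brain-enriched miR-128 were at -0.10, -0.03 and -0.26 by passage. None of these was called (limma adjusted p = 0.809, 0.957 and 0.495). Both lists were drawn by values that hold the passage difference, so these results are no separate support for those of the members. The calls are on the scale where the median miRNA stood at -0.39. miR-92b was dim, at -3.87 and -3.49 on the secondary arrays titled NFIA OE and control and -3.48 on the primary NFIA OE-titled one. The lowest detected probes there were at -4.27, -4.34 and -3.97. Its passage difference was -0.39 in the pair titled NFIA OE and -1.71 in the pair titled control.

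**Figure D4:**
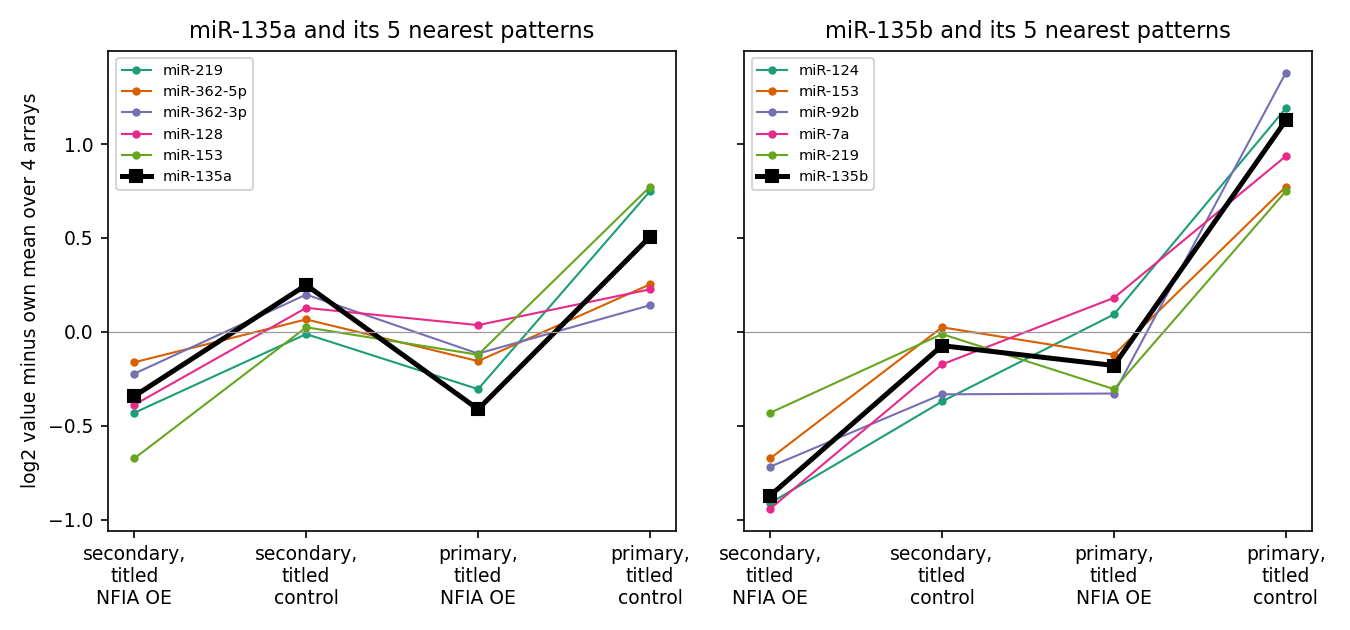
Log2 scaled values minus each miRNA's own mean over the 4 arrays, for miR-135a (left) and miR-135b (right) in black and their 5 nearest patterns in colour. The lines only join the values of 1 miRNA over 4 arrays. The neighbours were picked by these same values, so their likeness follows from the choice. In each miRNA drawn, the array titled NFIA OE lies below the control-titled array of the same passage, and in miR-135b and its 5 neighbours the primary control-titled array stands highest.

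Of the neural progenitor and neuronal list, 12 of 14 members were on the array under their listed names and 7 were measured on all 4. miR-128a and miR-128b were not, but miR-128 was measured. It is outside these counts and differed by title by -0.52 in the secondary and -0.19 in the primary pair. Of the 7 measured under listed names, 4 were lower in both pairs by title, with a median of -0.42, against 33.3% and -0.0022 over all 153. The lowest by title were miR-124 (-0.82), miR-153 (-0.80) and miR-7a (-0.76), beside -1.05 and -0.76 for miR-135b and miR-135a. Others had both signs, in the secondary and primary pair, namely miR-125b-5p (-0.22 and 0.62), miR-218 (0.11 and -0.95) and miR-9* (-0.83 and 0.06). The list's summed scaled intensity was 19.2 and 25.5 on the secondary arrays titled NFIA OE and control. On the primary arrays it was 12.9 and 11.1, so the sum was not lower by title there. By passage 2 of the 7 were called lower (miR-124 and miR-7a) and 3 higher, namely miR-9* at 2.60, miR-9 at 1.87 and miR-125b-5p at 0.71 (limma adjusted p = 1.29e-13, 3.82e-08 and 0.0388). miR-9 and miR-9*, both arms of the same hairpin, are abundant in neural progenitors. The sign of miR-135b by passage was that of miR-124 and miR-7a.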

How the data were processed

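Mature miRNAs of 4 samples were read on 1-colour Agilent mouse miRNA arrays (Cy3). Per the file headers, the deposited spot intensity came from Feature Extraction 10.5.1.1, which detrended it over the array and subtracted background. Arrays were left unscaled relative to each other. Dividing the scanner's total signal of a miRNA by the authors' deposited processed intensity gave a single factor for each sample (31.0, 33.7, 34.1 and 20.3 for the secondary NFIA OE-titled, secondary control-titled, primary NFIA OE-titled and primary control-titled samples).

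Control spots and outlier-flagged spots were left out and spots were averaged per probe. Detection of a probe required the well-above-background flag on 50% or more of its spots. A miRNA's value is the mean log2 over its probes detected on all arrays, after scaling to the 75th percentile. limma 3.58.1 in R 4.3.3 fitted title and passage over 153 miRNAs, with 1 residual degree of freedom each, pooled by empirical Bayes with an infinite prior, after a test on simulated data. Named miRNAs are the members, their partner strand and genomic neighbours, the 5 nearest patterns of each member, markers of the fixed lists, and the 3 lowest by title of the neural list. miR-551b was added after its values were seen. Members and lists were chosen with earlier results of these data known. Having 1 array per group limits how precise any value can be.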

Additional observations from a re-analysis of the deposited data

Results flagged for a closer look

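miR-135a had opposite signs by passage in the 2 pairs of arrays, at 0.07 in the pair titled NFIA OE and -0.26 in the pair titled control. Of the 153 miRNAs 17.6% had opposite signs there. Its partner strand miR-135a* had opposite signs by title, at 0.32 in the secondary pair and -0.11 in the primary pair, as had 43.1% of the 153 miRNAs. With 1 array per group neither difference between pairs was tested. The signs of miR-135a by passage depend on the scaling. Unscaled, both its probes were brighter on the secondary array in both pairs. The value of 0.07 had an SE over spots of 0.047, which is technical.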

How the results depend on the processing

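No paired analysis was possible because each group has 1 array, so that replicate numbers pair nothing. The fit by passage does hold title as a term, and its value without title is given here. By the source names the title differences become 0.76 for miR-135a and 1.05 for miR-135b. Their values in single pairs ran from -0.92 to -0.59 for miR-135a and from -1.31 to -0.80 for miR-135b. By passage, single pairs, which have no residual degree of freedom, ran from -0.26 to 0.069 for miR-135a and from -1.20 to -0.69 for miR-135b. miR-135a by passage turned to 0.66 with the percentile over all probes, 0.39 with median centring, 0.86 without scaling, 0.56 with the authors' processed values and 0.30 relative to the median miRNA, called in none (0). miR-135b was no longer called by passage in 8 settings. It was at -0.20 with the percentile over all probes, -0.87 with quantile normalization (limma adjusted p = 0.0541), -0.47 with median centring, 0.0045 without scaling, -0.30 with the authors' processed values and -0.56 relative to the median. It kept its value of -0.95 without a filter on dim probes and without title in the fit, where the adjusted p was 0.0848 and 0.0850. It was called with normexp, the total gene signal, detection on at least 1 array, the median of spots and the brightest probe. miR-135a* was no longer called by passage at -0.070 with the percentile over all probes, -0.22 with quantile normalization, -0.34 with median centring, -0.065 with the authors' processed values, -0.76 without a filter and -0.43 relative to the median, and turned to 0.13 without scaling. limma called 70 of 153 miRNAs by passage, but 30 with the percentile over all probes, 21 without scaling, 108 of 252 with detection on at least 1 array and 0 with median centring, where 44 passed an unadjusted p under 0.05. Of miR-135a and miR-135b, the title differences kept their sign in all 12 settings run. These reprocess the arrays by which the members were picked, so the kept sign is no separate support. With detection on at least 1 array and without a filter on dim probes, the title differences were the reported ones.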
